A study of Homo sapiens with 4 samples.

Results

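The comparison described here sets 2 arrays of MCF10A, a human breast epithelial line, side by side: the one labelled PIK3CA-H1047R and the one labelled Her2, each from cells given a single oncogene. Its members are genes read by a probe set with exactly 1 symbol whose log2 value was 5 or more on any of the 4 arrays of the series, 4310 of 20489 measured genes. These are called counted genes below. MCF10A is an immortalised line from non-malignant breast tissue. All 4 samples were stable transfections of this line, grown untreated in a medium named SFIHE, with 1 array each: LacZ (a bacterial enzyme, the control), Her2, the H1047R variant of PIK3CA, and Her2 together with that variant. The labels do not say how many clones each transfection holds. Every value is the log2 expression value of a probe set, so a difference of 1 is 2-fold, and every difference below is the PIK3CA-H1047R array minus the Her2 array unless another pair is named. With 1 array a side there is no replicate spread, no test and no error for any difference. Values under 2 are called near background, and a difference from such a value is a lower bound. Over all 53617 probe sets the 4 array medians lay between 1.13 and 1.17.

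ERBB2 went against the labels of the 2 compared arrays. The probe set for ERBB2 (Her2), which is also annotated to the microRNA gene MIR4728, had a log2 value of 5.96 with the label LacZ, 4.29 with the label Her2, 8.48 with the label PIK3CA-H1047R and 7.39 with the label that joins both genes. It was thus 4.19 higher on the array labelled PIK3CA-H1047R than on the one labelled Her2. PIK3CA itself has no named probe set here and gave no second check. All sides are therefore named by the label of the array. If the labels of these 2 arrays were exchanged, every difference below would keep its size and turn its sign.

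HER2 is a receptor tyrosine kinase of the epidermal growth factor receptor family. Its dimers recruit phosphoinositide 3-kinase, whose catalytic subunit PIK3CA makes the lipid messenger PIP3 and so activates AKT, and they also activate the RAS and MAPK cascade. The H1047R substitution lies in the kinase domain and raises lipid kinase activity. Both genes are recurrently altered in breast cancer, and in MCF10A cells either can reduce the need for growth factors, change adhesion and shift the balance between epithelial and mesenchymal programmes.

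Between the 2 arrays, 263 counted genes were at least 2-fold higher on the array labelled PIK3CA-H1047R (6.10% of 4310) and 159 at least 2-fold lower (3.69%), together 422 genes or 9.79%. Of the higher genes 51 (19.4%) reached 5 on the PIK3CA-H1047R array alone, and of the lower genes 23 (14.5%) on the Her2 array alone, so these were counted only through the array where they were high. At 4-fold the numbers were 56 and 22. The median difference of all counted genes was 0.05, and 66.1% of them differed by less than 0.5. Of the genes called higher, 29 were near background on the Her2 array, and of those called lower, 4 were near background on the PIK3CA-H1047R array. Among counted genes, calls were densest where the mean over both arrays was low. Of the 69 with a mean under 3, 49.3% were called (31 higher and 3 lower). Of the 867 with a mean of 3 to 5 it was 18.5%, and of the 798 with a mean of 7 or more 6.02%. The filter admits a gene this dim only if it reached 5 on 1 of the 4 arrays. It thus favours dim genes that vary between arrays, and these shares do not describe dim genes in general.

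**Figure D1:**
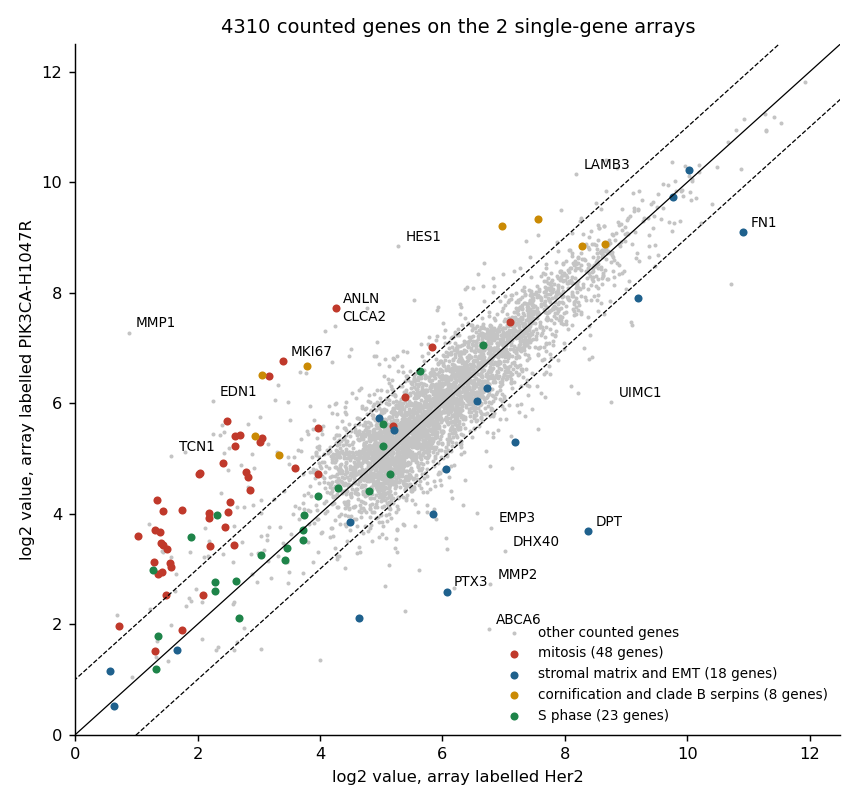
Log2 value of each of the 4310 counted genes on the array labelled Her2 (x axis) and on the array labelled PIK3CA-H1047R (y axis), 1 point per gene, with 4 groups of gene lists in colour. The solid line marks equal values and the dashed lines 2-fold; 40 of 48 mitotic genes lie above the upper dashed line, and 6 of 13 stromal matrix genes lie below the lower one.

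MMP1, the interstitial collagenase, had the largest difference. On the arrays labelled LacZ, Her2, PIK3CA-H1047R and both, the order used in all lists of 4 values below, it read 1.29, 0.87, 7.27 and 2.04. It was high on 1 array of 4 and at least 84.5-fold higher there than on the Her2 array. EDN1, the precursor of the vasoconstrictor peptide endothelin, read 2.34, 2.24, 6.04 and 3.83, a difference of 3.80. HES1, a transcriptional repressor and a classic target of Notch signalling, read 5.22, 5.27, 8.84 and 4.55, so that the other 3 arrays lay within 1 log2 unit of each other and the PIK3CA-H1047R array stood 3.57 above the Her2 array. TCN1, a vitamin B12 binding protein, differed by at least 3.46 and TTC9 by at least 3.33, because both were near background on the Her2 array. ANO1, a calcium-activated chloride channel, differed by 3.20, NIBAN1 by 3.19, CLCA2, a regulator of such channels, by 3.15, the phospholipase D family member PLD5 by 3.02, the clock factor BMAL2 by 2.96 and the calcium-binding protein CALB2 by 2.88. CALB2 read 5.21, 3.68, 6.56 and 1.74, which makes it lowest where both genes were introduced.

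At the other end, ABCA6, a transporter of the lipid-related ABCA family, read 3.84, 6.75, 1.91 and 3.94 and was at least 28.7-fold lower on the PIK3CA-H1047R array. DPT, the matrix protein dermatopontin, read 3.41, 8.38, 3.69 and 7.86, a difference of -4.69. It was high on both arrays whose label includes Her2 and low on the other 2. MMP2, a gelatinase, read 3.92, 6.78, 2.72 and 4.54 and differed by -4.06. DHX40, a putative RNA helicase, behaved otherwise: it read 6.64, 7.02, 3.32 and 4.40, so that the LacZ array resembled the Her2 array and the 2 arrays labelled with PIK3CA-H1047R were low. TMT1A, a methyltransferase, differed by -3.53, the pentraxin PTX3 by -3.48, the membrane protein EMP3 by -3.05, UIMC1, a ubiquitin reader of the DNA damage response, by -2.73 and IFITM2, an antiviral membrane protein, by -2.71. EMP3 read 7.06, 6.80, 3.75 and 4.59, IFITM2 6.37, 6.08, 3.36 and 5.53, and UIMC1 8.75, 8.76, 6.02 and 7.59. In these 3 the LacZ and Her2 arrays lay within 0.3 of each other.

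The remaining genes among the lowest mostly divide in the same 2 ways. PROS1, the anticoagulant protein S, read 2.93, 5.12, 3.07 and 5.64, and the protocadherin PCDHB14 4.14, 6.34, 4.16 and 3.90, a difference of -2.05 and of -2.18. In both the PIK3CA-H1047R array lay beside LacZ and the Her2 array above them. WDR5B was also highest on the Her2 array, at 3.44, 5.06, 2.69 and 4.49. In ARRDC3, an arrestin-like adaptor of receptor trafficking, the LacZ and Her2 arrays were close (6.16 and 6.56) and the PIK3CA-H1047R array was low at 4.01, a difference of -2.55. BLMH, the cysteine protease bleomycin hydrolase (-1.85), PCED1A (-1.99) and the zinc finger gene ZNF358 (-1.88) shared that form. FOXD4, a forkhead factor, differed by -2.49, BICC1, an RNA-binding protein, by -2.30, MGP, the matrix inhibitor of calcification, by -2.03, PLXDC2 by -2.03 and MARCKS, a substrate of protein kinase C, by -1.93. Of the 60 highest and lowest genes, 7 are left unnamed (antisense or intergenic RNAs, a pseudogene and uncharacterised symbols).

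**Figure D2:**
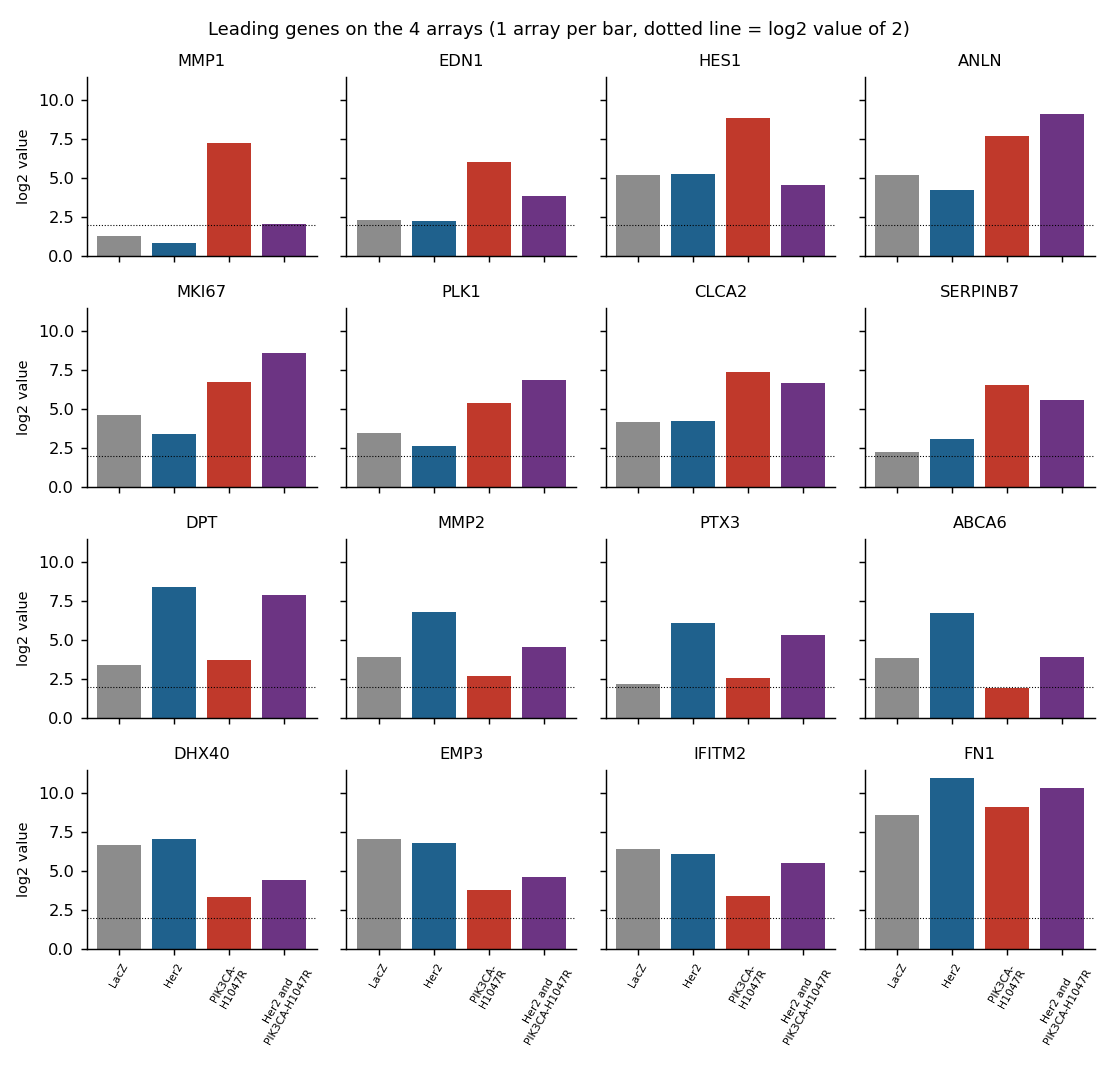
Log2 value of 16 leading genes on each of the 4 arrays, 1 bar per array, with a dotted line at 2. MMP1 and HES1 stand out on the PIK3CA-H1047R array alone, ANLN, MKI67 and PLK1 are highest on the array labelled with both, and DPT and PTX3 are high on the 2 arrays whose label includes Her2.

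The LacZ array shows which of the 2 compared arrays stood apart. Of the 263 higher genes, LacZ lay within 0.5 of the Her2 array in 129 and within 0.5 of the PIK3CA-H1047R array in 45, between the 2 in 63, below both in 23 and above both in 3. Of the 159 lower genes, it lay within 0.5 of the Her2 array in 81 and of the PIK3CA-H1047R array in 42, between them in 28, and outside them in the remaining 8 (4 below, 4 above). About 49.0% of the higher and 50.9% of the lower genes thus had LacZ beside Her2, and 17.1% and 26.4% had it beside PIK3CA-H1047R. The array labelled with both genes lay within 0.5 of the Her2 array in 76 of the higher genes of the PIK3CA-H1047R array in 37, above both in 79, below both in 39 and between them in 32. In the lower genes the same numbers were 46, 44, 23, 12 and 34.

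Among the gene lists, mitosis had the most members on the higher side. The list holds spindle, checkpoint, kinetochore and cytokinesis genes, which cells transcribe late in the cycle. Of 48 counted members, 40 were at least 2-fold higher on the array labelled PIK3CA-H1047R and 0 lower, with a median difference of 1.84 against 0.05 for all counted genes. ANLN (anillin, a scaffold of the cleavage furrow) read 5.23, 4.25, 7.72 and 9.13, a difference of 3.47. MKI67, the proliferation marker Ki-67, read 4.60, 3.39, 6.76 and 8.56 and differed by 3.36. TOP2A, the topoisomerase that untangles sister chromatids, differed by 3.33. In all 3 the Her2 array was the lowest of the 4 and the array labelled with both the highest. Where both genes were introduced, all 48 members were higher than with PIK3CA-H1047R by its label.

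By role, the regulators of entry and exit included CDC20, the activator of the anaphase-promoting complex (3.19), the kinase PLK1 (2.80), the cyclins CCNA2 (2.50), CCNB1 (1.67) and CCNB2 (1.53), and the kinases CDK1 (at least 1.52) and AURKB (1.74). Of the spindle checkpoint kinases, BUB1 differed by 2.68 and TTK by at least 1.86. Of the kinetochore genes, the motor CENPE differed by at least 2.32 and CENPF by 2.31, whereas CENPI and SPC25 differed by 0.15 and 0.21 with both arrays near background. Of the kinesins, KIF14 differed by at least 2.63, KIF4A by at least 2.39 and KIF20A by at least 2.28. The spindle proteins CKAP2L, HMMR and ASPM differed by at least 2.91, by 2.74 and by 2.69. The smallest differences among members above background on both arrays were 0.38 in BUB3, 0.40 in the condensin subunit SMC4 and 0.44 in SGO1, which guards sister cohesion. The transcription factor FOXM1, which activates many of these genes, differed by 0.84.

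On the Her2 array 18 of the 48 members were near background, and on the PIK3CA-H1047R array 3. Only 14 members reached a log2 value of 5 on either of these arrays, and all 48 did so on the array labelled with both, which is why they were counted. Over all 54 measured members, whatever their level, 42 were higher and 0 lower, with a median of 1.71. Quantile normalization left 32 of 48 at least 2-fold higher (median 1.22) and cyclic loess 32 (median 1.38). The median level of the counted members was 2.26 on the LacZ array, 2.31 on the Her2 array, 4.14 on the PIK3CA-H1047R array and 6.35 on the array labelled with both.

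DNA replication genes differed by less. Of 23 counted genes of S phase, 3 passed 2-fold upwards and 0 downwards, with a median of 0.22, which turned to -0.31 after quantile normalization and to -0.16 after cyclic loess. The 3 were CDC6, which loads the replicative helicase, at no less than 1.72, RRM2, a subunit of ribonucleotide reductase, at no less than 1.67, and the repressor E2F7 at 1.66. The helicase subunits MCM3, MCM4, MCM6 and MCM7 differed by -0.39, 0.59, -0.08 and 0.20, the sliding clamp PCNA by 0.40 and thymidylate synthase TYMS by -0.26. MCM6 read 3.36, 3.46, 3.38 and 6.01, so that it was level on 3 arrays and high on the array labelled with both. All 23 members were higher on that array than on either single-gene array. The filter favoured this outcome: all 23 reached 5 on that array, but only 5 on either compared array and 4 on LacZ. Of 7 counted repair genes 1 was higher (ATAD2, 1.22) and 1 lower (UIMC1), and of 6 counted histone genes 0 were called. Among 8 counted G1 regulators and inhibitors 1 was called, the phosphatase CDKN3 (1.01); cyclin D1 (CCND1) differed by 0.88, its partner kinase CDK4 by -0.88 and the p53-induced inhibitor CDKN1A by 0.22.

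The promoters of late and early cell cycle genes carry different textbook elements, and a few are shown because the 2 groups differed here. Late genes are held off outside division through the CHR element (letters TTTGAA) and are activated through CCAAT boxes, and replication genes carry E2F sites (searched as TTTCGCGC or TTTGGCGC). The stretches below run from 170 bases before to 20 after the annotated start in RefSeq's GRCh38.p14 promoters, on the strand of the gene. Capitals mark CHR and CCAAT matches on either strand in the first 4 genes and E2F matches in the last 2. The last 2 also hold CCAAT matches, which are left in lower case. These begin 100 and 58 bases before the start in MCM6 and 120 and 84 before it in MCM3.
PLK1, chr16:23678719-23678908, plus strand: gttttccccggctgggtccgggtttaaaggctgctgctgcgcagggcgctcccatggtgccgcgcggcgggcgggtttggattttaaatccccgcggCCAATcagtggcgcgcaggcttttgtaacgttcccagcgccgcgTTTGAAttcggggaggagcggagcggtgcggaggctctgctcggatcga
HMMR, chr5:163460462-163460651, plus strand: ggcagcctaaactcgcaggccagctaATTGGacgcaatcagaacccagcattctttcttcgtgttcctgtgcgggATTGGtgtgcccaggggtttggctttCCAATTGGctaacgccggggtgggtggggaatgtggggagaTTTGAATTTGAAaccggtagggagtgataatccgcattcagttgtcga
CCNB2, chr15:59104976-59105165, plus strand: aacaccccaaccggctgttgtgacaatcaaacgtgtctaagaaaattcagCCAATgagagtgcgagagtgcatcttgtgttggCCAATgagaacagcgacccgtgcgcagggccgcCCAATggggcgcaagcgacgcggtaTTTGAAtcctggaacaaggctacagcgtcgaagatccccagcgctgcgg
DEPDC1, chr1:68497063-68497252, minus strand: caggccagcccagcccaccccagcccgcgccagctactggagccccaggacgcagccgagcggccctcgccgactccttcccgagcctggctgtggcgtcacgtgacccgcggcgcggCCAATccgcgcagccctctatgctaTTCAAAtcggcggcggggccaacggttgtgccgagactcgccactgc
MCM6, chr2:135876424-135876613, minus strand: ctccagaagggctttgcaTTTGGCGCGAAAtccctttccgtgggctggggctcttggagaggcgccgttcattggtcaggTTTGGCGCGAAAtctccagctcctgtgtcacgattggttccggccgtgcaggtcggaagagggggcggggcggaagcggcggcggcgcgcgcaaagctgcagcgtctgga
MCM3, chr6:52284723-52284912, minus strand: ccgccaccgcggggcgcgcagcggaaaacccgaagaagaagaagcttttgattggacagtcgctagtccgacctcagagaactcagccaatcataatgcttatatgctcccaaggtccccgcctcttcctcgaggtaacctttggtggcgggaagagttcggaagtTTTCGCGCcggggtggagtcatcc

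In the 4 mitotic promoters the CHR match began 27 to 29 bases before the start, with a further one at 22 in HMMR, and the nearest CCAAT match 52 to 73 bases before it. In HMMR 2 CCAAT matches on opposite strands overlap, and in MCM6 each pair of E2F matches overlaps. Over the whole window of 250 bases before to 50 after the start, 34 of the 48 listed mitotic genes with a promoter in the table held a CHR match (70.8%, against 18.2% of all 27305 genes with promoters there) and 37 a CCAAT match (77.1%, against 39.7%). Of 36 listed S phase genes 1 held a CHR match, 21 held CCAAT (58.3%) and 12 an E2F match (33.3%, against 1.40%). Within the counted mitotic genes, the 30 with a CHR match had a median difference of 1.97, with 26 called higher (86.7%). The 11 without one had a median of 1.67, with 9 called higher (81.8%). Split by CCAAT, the 32 with a match had a median of 1.96, with 29 called higher (90.6%). The 9 without one had a median of 1.31, with 6 called higher (66.7%). Of the counted S phase genes, the 7 with an E2F match had a median of 0.17 and the 14 without one of 0.34. On each side 14.3% were called higher. Outside the mitosis list, the 268 counted genes holding CHR and CCAAT matches together had a median of -0.01, and 15 of them (5.60%) were at least 2-fold higher. The 3294 with neither or 1 of these had a median of 0.06, and 156 of them (4.74%) were higher. The matches are letters in a window and were not tied to binding of any factor in these cells.

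Among the lists, secreted stromal matrix genes had the most members on the lower side. Of 13 counted members of the stromal matrix list, 6 passed 2-fold downwards and 0 upwards, with a median of -0.65 (-1.10 after cyclic loess). Besides DPT and PTX3 these were FBN1 (fibrillin, the microfibril protein), FN1 (fibronectin), POSTN (periostin) and EFEMP1. FBN1 read 2.09, 4.64, 2.12 and 5.65 and differed by -2.52. FN1 read 8.54, 10.91, 9.09 and 10.32 and differed by -1.82. In FBN1, as in DPT and PTX3, the PIK3CA-H1047R array lay within 0.5 of the LacZ array and the 2 arrays whose label includes Her2 were high. POSTN read 4.07, 9.19, 7.90 and 8.62, so that all 3 arrays with an introduced oncogene stood far above LacZ, and it differed by -1.30 between the 2 compared. VCAN (versican) differed by -0.45, THBS1 by 0.20 and SMOC1 by 0.77. EFEMP1, a fibulin, differed by -1.25. Over all 29 measured members 7 were lower and 0 higher, and the median was -0.19.

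Genes of the epithelial-mesenchymal transition followed the same side. Of 7 counted members 3 were lower and 0 higher, with a median of -0.52. Over all 22 measured members 4 were lower and 2 higher (the contractile protein MYL9 at 1.07 and the homeobox factor PRRX1 at no less than 1.06), with a median of -0.06. The 3 counted and lower were LOX, TWIST1 and FN1, which is also in the matrix list. LOX, which crosslinks collagen and elastin, read 6.17, 7.19, 5.29 and 7.20 and differed by -1.89. TWIST1, a basic helix-loop-helix factor of mesenchyme, read 4.02, 5.84, 3.99 and 5.22 and differed by -1.85. SNAI2 was level at -0.03, and the cadherin CDH2 was near background on both arrays. HAS2, a hyaluronan synthase, read 0.98, 4.01, 1.35 and 5.86 and was at least 6.32-fold lower. Of the 4 fibroblast markers counted, DPT and FAP were lower (FAP at -1.21). LUM and DCN were near background on both compared arrays (0.63 and 0.52 for LUM, 0.57 and 1.15 for DCN). They were counted only through the array labelled with both, where they read 6.26 and 5.06. Over all 13 fibroblast markers measured, 2 reached 5 on the Her2 array and 0 on the PIK3CA-H1047R array, and their summed log2 values were 26.3 and 21.9. The part of such cells in these differences was not tested.

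Proteases of the matrix went both ways. Besides MMP1 and MMP2, the inhibitor TIMP3 was higher (3.17, 5.35, 6.57 and 4.53, a difference of 1.22) and TIMP2 lower (-1.06), so that 2 of 6 counted members of the list were called in each direction. Of 15 integrin and laminin chains, LAMB3, a chain of the epithelial basement membrane laminin, differed by 1.96, ITGA2, a collagen receptor chain, by 1.29 and ITGA6, the laminin receptor chain of hemidesmosomes, by 1.16. ITGB6, an epithelial chain that activates latent TGF-beta, differed by -1.24. LAMB3 read 8.61, 8.19, 10.15 and 6.94 and was highest on the PIK3CA-H1047R array and lowest on the array labelled with both.

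Squamous differentiation genes were higher on the array labelled PIK3CA-H1047R. Of 5 counted members of the cornification list 4 passed 2-fold, and the median was 1.76. A2ML1, CASP14 and SCEL among these reached 5 on the PIK3CA-H1047R array alone and were counted only through it. A2ML1, a protease inhibitor of the upper epidermis, read 4.25, 3.78, 6.67 and 3.43 (2.89). CASP14, the caspase of cornifying keratinocytes, read 1.05, 2.94, 5.40 and 3.80 (2.47). The protease KLK7 read 9.66, 7.57, 9.33 and 6.41 (1.76), so that here LacZ was as high as PIK3CA-H1047R and Her2 was the array that stood apart. SCEL differed by 1.73. Over all 31 measured members, most of them dim, 9 were higher and 0 lower, and the median was 0.26. SERPINB7 and SERPINB1, intracellular protease inhibitors, differed by 3.46 and 2.24, and SERPINB5 by 0.21. The keratin KRT80 differed by 1.92, and the other 4 counted keratins by 0.29 to 0.86. Of 6 counted S100 genes S100A2 (1.44) and S100A14 (1.42) were called, and all 6 lie on chromosome 1, described below. KLK6 went against the other 3 counted kallikreins, with 8.07, 5.25, 3.70 and 2.71 and a difference of -1.55.

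Epithelial adhesion genes lay mostly in the same direction and differed by less. All 8 counted desmosome genes were above 0, with a median of 0.63 and 1 call, the desmosomal cadherin DSC2 (1.22). All 6 counted epithelial transcription and splicing factors were above 0, with a median of 0.74 and 1 call, EHF (1.25). The splicing regulators ESRP1 and ESRP2 differed by 0.69 and 0.83 and GRHL2 by 0.80. Of the tight junction genes CLDN1 was called (1.44), and of 11 polarity and surface protease genes the recycling motor MYO5B (1.25). In that list of 11, 4 were below 0, among them SCNN1G (-0.85) and SCNN1B (-0.53). Its median was 0.36 and turned to -0.08 with a filter at 7. The adherens junction list had a median of 0.15 over 10, with 0 calls and 3 below 0, among them CDH11 (-0.91). E-cadherin (CDH1) read 9.34, 8.94, 9.13 and 5.07, a difference of 0.19, and EPCAM 7.94, 7.01, 7.78 and 5.71, a difference of 0.77. Against the shared LacZ array, the medians of these lists on the PIK3CA-H1047R and Her2 arrays were -0.03 and -0.89 for the transcription factors, -0.59 and -1.11 for the polarity genes and 0.68 and -0.12 for the desmosome genes. The Her2 array was thus the one further from LacZ in the first pair of lists and the PIK3CA-H1047R array in the desmosome list. As a check of the cell type, EPCAM and CDH1 and the basal keratin KRT5 (7.08 and 7.52) were well above background on both compared arrays. Other epithelial markers were not, and the keratin KRT14 was near background on the Her2 array. Of 10 measured general epithelial markers, 4 reached 5 on each compared array. Of 8 measured basal markers, 7 reached it on each. Of 21 measured luminal markers, 3 reached it on the Her2 array and 4 on the PIK3CA-H1047R array. Endothelial markers had 0 of 9 measured members at 5 or more on any array, and of 13 leukocyte markers only CD68, a lysosomal protein not limited to leukocytes, reached it (4.94 and 6.24).

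**Figure D3:**
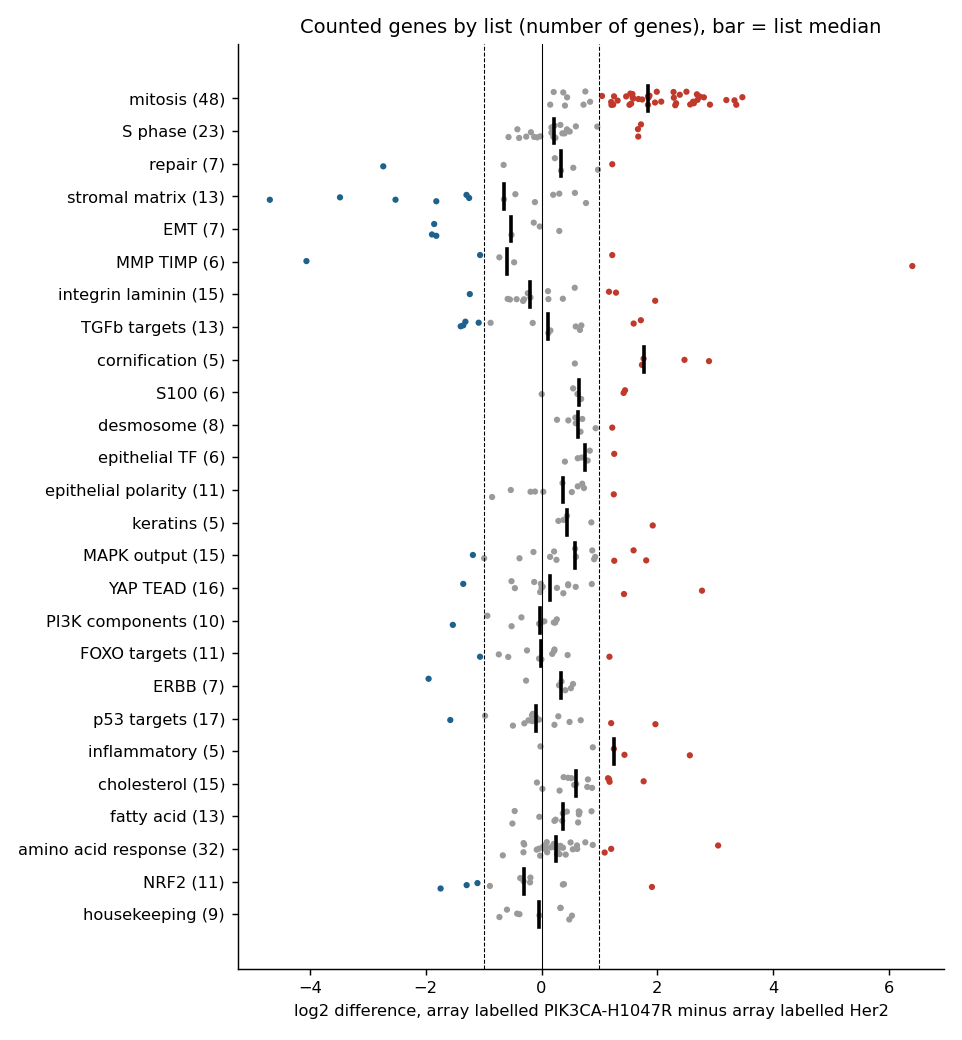
Log2 difference of each counted gene, PIK3CA-H1047R array minus Her2 array, in 26 gene lists, with the number of counted genes in brackets and a bar at the list median. Dashed lines mark 2-fold, red points are at least 2-fold higher and blue points at least 2-fold lower; the mitosis median is 1.84 and the stromal matrix median -0.65.

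Single ligands and targets of several signalling routes passed 2-fold. The Notch list had 4 counted members, 2 higher and 0 lower, with a median of 0.98. Over its 20 measured members 2 were higher and 1 lower (MAML2 at -1.30), with a median of 0.27. In the Notch list HES1 was joined by the ligand JAG1 (7.03, 6.67, 8.11 and 6.22, a difference of 1.45), while the receptors NOTCH1 and NOTCH2 differed by 0.51 and -0.10. BMP6, a bone morphogenetic protein, read 2.86, 3.02, 5.75 and 1.29, a difference of 2.73. INHBA, the activin chain, differed by 1.59 and the circadian repressor BHLHE40 by 1.71. Lower on the array labelled PIK3CA-H1047R were ID1 (-1.40), a direct target of BMP signalling, and TGFB2 (-1.35), TGFB1 (-1.09) and their receptor TGFBR2 (-1.31). The TGF-beta and BMP list thus had 2 members higher and 4 lower of 13, with a median of 0.12. Over all 28 measured members 2 were higher and 5 lower and the median was -0.15, so its sign depended on the filter. Among targets of YAP and TEAD, CCN1, a matricellular protein and immediate early gene, read 3.26, 3.78, 6.55 and 6.29 (2.77) and FOXF2 differed by 1.42, but CCN2 by 0.59 and the list median was 0.14.

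Output and feedback genes of the MAPK cascade had a median of 0.58 over 15 counted members, 0.22 over all 26 measured and 0.24 over the 12 counted ones outside chromosomes 1 and 17. DUSP10, a phosphatase of stress kinases (1.81), and the AP-1 subunits FOSL1 (1.59) and JUN (1.26) were at least 2-fold higher. DUSP6, the phosphatase that ERK induces against itself, was lower at -1.19, with 8.56, 8.41, 7.23 and 7.06, and DUSP1 differed by -0.99. MYC and EGR1 differed by 0.15 and -0.14. DUSP10 and JUN lie on chromosome 1.

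Components of the phosphoinositide 3-kinase pathway differed little as a list. Of 10 counted genes 1 was called, the insulin receptor substrate IRS1 at -1.53, and the regulatory subunit PIK3R1 differed by -0.94, with a median of -0.03. Targets of FOXO factors, which AKT keeps out of the nucleus, had 1 higher (GADD45A, 1.17), 1 lower (BCL6, -1.06) and a median of -0.0022 over 11. Of 7 counted ERBB receptors, ligands and feedback genes, LRIG3 was lower (-1.95), EGFR differed by -0.27 and the ligands EREG, HBEGF and TGFA by 0.34, 0.51 and 0.54. The 6 counted neighbours of ERBB2 had a median of 0.11 and 0 calls, against the 4.19 of ERBB2 itself. Of 17 targets of p53, PLK2 (1.97) and SESN2 were higher and GDF15 lower (-1.58), with a median of -0.10.

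Inflammatory and defence genes were few among the counted ones. TNFAIP3, the feedback inhibitor of NF-kB, read 2.97, 3.47, 6.03 and 4.83 (2.56), the cytokine IL1A 4.68, 5.65, 7.08 and 5.73 (1.43), and CXCL16 differed by 1.25. These were 3 of 5 counted members. PI3, the elastase inhibitor elafin, differed by 1.33, whereas complement C3 read 8.74, 8.45, 6.84 and 7.97 and differed by -1.61. Of 5 counted interferon-stimulated genes IFITM2 was the only one called, and the list median was -0.38 (-0.04 over 47 measured).

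Cholesterol synthesis genes lay mostly on the higher side. Of 15 counted members 4 were at least 2-fold higher and 0 lower, with a median of 0.60, and 14 of 15 were above 0. INSIG1, the sterol-responsive anchor of the pathway, read 5.88, 5.92, 7.68 and 8.41 (1.76), and MVD, STARD4 and ACAT2 differed by 1.17, 1.16 and 1.15. The synthesis enzymes HMGCS1 and SQLE differed by 0.79 and 0.38. Fatty acid genes had a median of 0.37 over 13 with 0 calls, FASN at 0.66 and SCD at 0.63. The amino acid response list had a median of 0.25 over 32, with 3 calls: ATF3, a stress-induced factor (2.28, 2.44, 5.49 and 1.91, a difference of 3.05), SESN2 and the tRNA synthetase EPRS1 (1.09). All 3 lie on chromosome 1, and ATF4 itself differed by 0.10. The glucose transporter SLC2A1, also on chromosome 1, was the only one of 11 glycolysis and hypoxia genes called (1.70).

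NRF2 targets tended the other way. Of 11 counted members NQO1 (5.68, 6.15, 4.40 and 8.05, a difference of -1.74), the glutathione reductase GSR (-1.29) and the exporter ABCC3 (-1.11) were lower. ABCC2, also an exporter, was higher by no less than 1.91, and the list median was -0.31. The potassium channels KCNK5 and KCNJ15 were lower at -1.55 and -1.24. Genes used as references had 0 calls among 9, a median of -0.04 and a range of -0.73 in PPIA to 0.53 in POLR2A, so that single reference genes lay up to 1.65-fold apart between these 2 arrays.

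Differences were not spread evenly over the genome. Chromosome 1 had a median difference of 0.35 over 477 counted genes, of which 77.1% were above 0, 67 (14.05%) were at least 2-fold higher and 6 lower. It held 11.1% of the counted genes and 25.5% of those called higher. Chromosome 17 had a median of -0.17 over 303 genes, with 12 higher and 30 lower. The 8 mitochondrial genes had a median of -0.35, with 0 above 0 and 1 called lower. The other 21 chromosomes had medians between -0.07 and 0.16. Over these and the mitochondrial genes together, 3519 genes, 5.23% were higher and 3.50% lower. Against LacZ, chromosome 1 had a median of 0.41 on the PIK3CA-H1047R array and 0.06 on the Her2 array, and chromosome 17 one of -0.56 and -0.34. These medians share the LacZ array.

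In gene order, chromosome 1 lay above 0 along most of its length. In 24 consecutive groups of 20 counted genes (17 in the last) the medians lay between 0.24 and 0.60, except in 5 adjoining groups from MYSM1 to H2AC20, where they lay between -0.09 and 0.17. On chromosome 17 the first 160 genes, from VPS53 to RPL27, which include the surroundings of ERBB2, had a median of 0.04. The next 100, from VAT1 to MIF4GD, had a median of -0.53, with 84 below 0, 22 at least 2-fold lower and 2 higher (PRR11 and SOX9). This stretch was chosen after its values were seen. Against LacZ it had a median of -0.74 on the PIK3CA-H1047R array, -0.15 on the Her2 array and -0.67 on the array labelled with both. It holds ABCA6, DHX40, SCPEP1 (5.33, 5.61, 2.99 and 5.30, a difference of -2.62), KCNJ16 (-1.71), GRN (-1.69), ABCC3 and HOXB9 (-1.04). Copy number was not measured, and the cause of these regional differences was not tested. Without the genes of chromosomes 1 and 17, 184 genes were higher and 123 lower, and 29 of 37 remaining mitotic genes were higher with a median of 1.84.

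**Figure D4:**
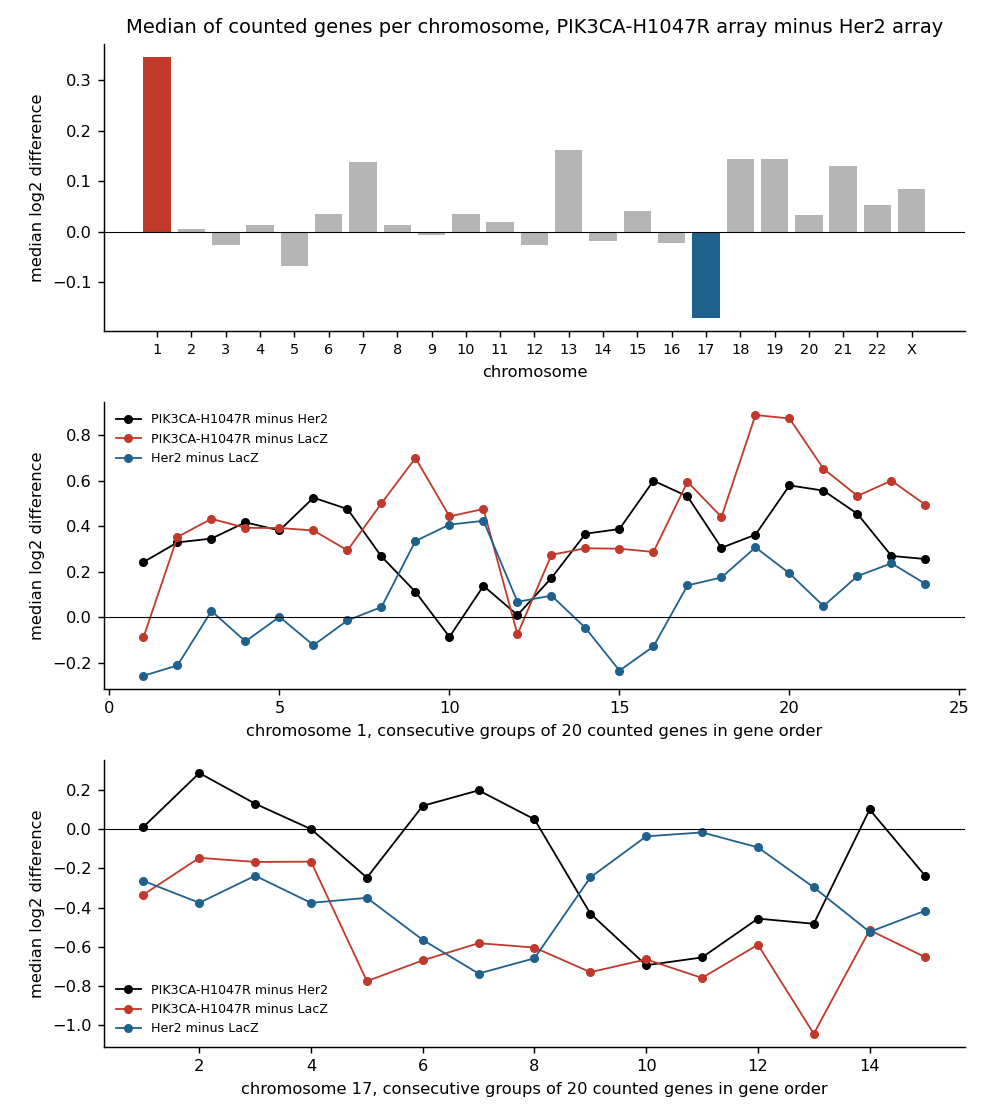
Top: median log2 difference of counted genes per chromosome, PIK3CA-H1047R array minus Her2 array, for chromosomes with at least 20 counted genes. Below: medians of consecutive groups of 20 counted genes in gene order on chromosomes 1 and 17, for that difference (black) and for each array against LacZ (red and blue); from group 9 to group 13 of chromosome 17 the black line lies between -0.43 and -0.69.

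Small RNAs were kept out of the counted genes and are given apart. Of 71 small RNA genes that reached 5 on at least 1 array, 43 (60.6%) were at least 2-fold higher on the array labelled PIK3CA-H1047R. A further 6 (8.45%) were lower, and the median was 1.25. Of the counted genes, 6.10% were higher and 3.69% lower. The C/D box small nucleolar RNAs, which guide methylation of ribosomal RNA, had a median of 1.71 with 17 of 25 higher and 0 lower. The H/ACA box ones, which guide pseudouridylation, had a median of 1.45 with 16 of 19 higher and 0 lower. Their median levels were 5.99, 5.04, 7.06 and 6.23 for C/D and 5.78, 4.94, 6.65 and 5.76 for H/ACA RNAs, so that the Her2 array was lowest and the PIK3CA-H1047R array highest, with LacZ between them. SNORA38B read 3.05, 2.21, 8.04 and 2.64 (5.84) and SNORD63 4.47, 3.43, 7.37 and 4.02 (3.94). These 2 and others among the higher small RNAs reached 5 on the PIK3CA-H1047R array alone. Among the C/D box RNAs these others were SNORD71, SNORD8, SNORD59A, SNORD60, SNORD17 and SNORD58A. All of these entered the numbers above only through the array where they were high. Over all 1906 measured small RNAs, whatever their level, 107 were at least 2-fold higher and the median was -0.03. Of 9 microRNA genes, 1 was higher and 5 lower.

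**Figure D5:**
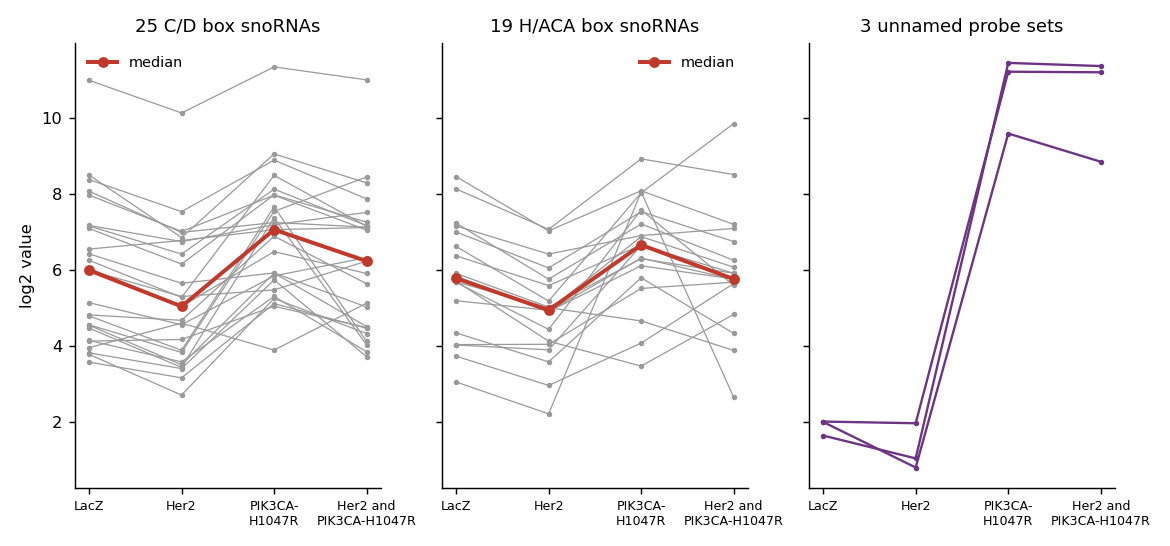
Log2 value on the 4 arrays of 25 C/D box and 19 H/ACA box small nucleolar RNAs (grey lines, 1 per RNA, red line their median) and of the 3 unnamed probe sets that were high on both arrays labelled with PIK3CA-H1047R. Lines join values of 1 probe set and imply no order of the arrays; the C/D median is 5.04 on the Her2 array and 7.06 on the PIK3CA-H1047R array.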

How the data were processed

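The deposited table holds log2 expression values. The authors made them with oligo and RMA, as the submitters' processing notes list, from 400 ng of total RNA per array, per the labels' protocols; their versions and the array's genome build are not given, and the log base was read from the method and the range of values. The platform annotation gave 1 symbol for 23871 of 53617 probe sets, several for 1842 and none for 27904; 90 symbols were updated with RefSeq (GRCh38.p14), which also gave gene order. The probe set with the highest mean over the 4 arrays stood for each of 610 genes with several. Small RNAs, ERBB2 and PIK3CA were left out of the counts. A gene was counted at 5 on at least 1 array and called at a difference of 1. Members and lists were chosen with earlier results of these data known. Named genes were the 30 highest and 30 lowest, without uncharacterised symbols, and members of lists; genes named by chromosome position were chosen after their values were seen. RMA normalizes arrays together, so a shift common to all genes cannot be seen. Values were computed with Python 3.11.15 and limma 3.58.1, and the counting was tested on simulated data. The alternatives are in the closing section.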

Additional observations from a re-analysis of the deposited data

Results flagged for a closer look

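These values come from probe sets that the comparison of counted genes did not use. Of 71 small RNAs that reached 5 on at least 1 array, 43 were at least 2-fold higher on the PIK3CA-H1047R array than on the Her2 array. That was 60.6%, against 6.10% of the counted genes. With a filter at 3 the number was 75 of 231, and with a filter at 7 it was 19 of 27. With a mean of at least 5 over the 4 arrays it was 29 of 48. Without a filter it was 107 of 1906, with a median of -0.03.

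Of 1921 unnamed probe sets that reached 5 on at least 1 array, 276 passed 2-fold downwards (PIK3CA-H1047R below Her2) and 162 upwards, with a median of -0.09. These were 14.4% and 8.43% of them, against 3.69% and 6.10% of the counted genes. The lowest difference among them was -5.50.

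Among all 53617 probe sets, 3 were at least 8-fold higher on both arrays labelled with PIK3CA-H1047R than on the LacZ and Her2 arrays, and all 3 are unnamed in the annotation used here. Probe set 17118624 read 1.64, 1.03, 11.44 and 11.36 on the arrays labelled LacZ, Her2, PIK3CA-H1047R and both. Probe set 17118536 read 2.00, 1.96, 11.21 and 11.20, and 17118578 read 1.99, 0.80, 9.59 and 8.84. They lay at 2.00 or below on 2 arrays and between 8.84 and 11.44 on the other 2, and ERBB2 was also higher on those 2 arrays. What they read is not known here. The reverse pattern, high on both arrays whose label includes Her2 and low on LacZ and PIK3CA-H1047R by the same margin, was met by 4 probe sets, 3 of them unnamed and the other DPT.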

How the results depend on the processing

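With 1 array per group no array could be left out. No paired analysis was possible because each group has 1 array only. The fold threshold and the filter moved the counts. Against 263 higher and 159 lower genes, no filter gave 554 and 524, a filter at 3 gave 458 and 416, a filter at 7 gave 78 and 45, and a mean of at least 5 over the 4 arrays gave 129 and 96; fewer or more genes entered each. A 1.5-fold threshold gave 662 and 520, and a 4-fold one 56 and 22. Quantile normalization gave 217 and 197, cyclic loess 229 and 184, and centring on the median 233 and 190, so the share of higher genes went from 62.3% to 52.4%, 55.4% and 55.1%. A filter on the 2 compared arrays gave 203 and 140, the mean of all probe sets 259 and 154, and small RNAs kept 306 and 165. Of 155 named genes, 0 turned direction in 1321 values under alternatives and 28 values fell under 2-fold, all after a change of scaling. Another filter, or keeping small RNAs, cannot alter a gene's own difference, so many of these values were fixed in advance. The 28 were 14 after quantile normalization, 11 after cyclic loess and 3 after centring, with 0 for the mean of all probe sets. Many named genes were also chosen for large differences. Of 40 list medians, 12 changed sign in 26 values, 22 of them within 2-fold. The other 4 ended past 2-fold: repair at -2.73 with a filter at 7 and at -1.25 with a mean of at least 5 and with a filter on the compared arrays, and TGF-beta at -1.10 with a filter at 7. A further 8 values newly passed 2-fold without a change of sign, and 7 no longer did: cornification without a filter (0.26) and inflammatory genes under 6 alternatives (0.54 to 0.89). Of 34 genes with several probe sets at 5 or more, 32 had differences within 1 of each other and ECH1 spread by 2.64. The differences shared a sign in 26 of the 34. In some, such as AGPAT1 and CLIC1 with 5 probe sets each, the spread was 0.0000. Such probe sets cannot be taken as separate readings. An exchange of the 2 labels turns every sign by construction. The alternative without chromosomes 1 and 17 and those for chromosomes and small RNAs were added after seeing the data; the chromosome 1 count was 52 to 69 under alternatives that kept the filter at 5 on 1 of the 4 arrays.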
